A study of Mus musculus with 18 samples.

Results

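The 5' UTR Ago2 peaks of mouse colonic epithelium were the 220 merged peaks that the authors' annotation labels utr5 (165 peaks) or utr5* (55 peaks), out of 5554 merged peaks in all, 5448 of them annotated. They carried 186 gene labels, 18 of which held 2 or more of the peaks, and were 26 to 147 bases wide, with a median of 55. The values come from HEAP, a pulldown of Argonaute 2 (Ago2) through a Halo tag after UV crosslinking, followed by sequencing of the RNA fragments it held. Both groups were C57BL/6 mice of 8 to 12 weeks that carried 1 Halo-Ago2 allele and the Fabp-Cre transgene, whose Fabp promoter is known to be active in intestinal epithelium. The wild-type (WT) group had normal K-Ras, and the other group (G12D) had in addition 1 K-Ras-G12D allele. The distal colon had been scraped with a blade and irradiated 3 times at 400 mJ per square centimetre. Each group had 3 pulldown mRNA and 3 miRNA libraries, and input RNA was also sequenced from each group. The input libraries are not analysed here, so differences at a peak and in the level of its mRNA cannot be told apart. Since this is bulk tissue, fewer cells of a type and less RNA per cell cannot be told apart either. The labels number the libraries but do not tie each to its own mouse, so p-values measure the spread between these libraries, which may be technical.

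Ago2 carries a miRNA whose seed, bases 2 to 8, pairs with matching bases of a target RNA and leads to its repression or decay. Most known target sites lie in the 3' UTR, downstream of the path of ribosomes. In the 5' UTR the small ribosomal subunit scans from the cap to the start codon, and sites there are less often described as repressive.

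The label was checked against RefSeq gene models of the same build (GRCm38.p6), in which a start on the peak's strand was known for 172 of the 220 peaks. The utr5 peaks lay near starts. The midpoints of 78 of 128 (60.9%) were within 1000 bases after the nearest start of their gene, and the median distance was 292 bases. The utr5* peaks did not. Of 44 with a known start, 6 (13.6%) lay in that window, 11 lay upstream of the nearest start, and their median position was 52.6% of the way along the gene. By the same measure 6.72% of exon peaks and 0.699% of 3' UTR peaks were within 1000 bases after a start. The asterisk is not explained in the sources used here, and 12 utr5* peaks overlapped neither an exon nor an intron of the authors' annotation. Muc3, which encodes a membrane mucin of enterocytes, accounted for 9 utr5* peaks within 1474 bases at 48.2% to 52.8% of the gene. Muc2, which encodes the secreted gel-forming mucin of goblet cells, held 7 peaks at 84.7% to 89.7% of the gene. Both stretches are far from the RefSeq start of their gene, and mucin genes hold repeated sequence, so reads of neighbouring peaks may not be separable. The histogram of positions shows utr5 peaks piled up at the start of the gene and utr5* peaks in the middle and near the end. For a peak with more than 1 label, as in 16 utr5* peaks, the position is along the first gene with a known start. The distance is to the nearest start of any labelled gene. The Pkm and Gramd2 peak, for example, lay at 97.4% of Pkm and -1057 bases from the nearest start. Positions near the end therefore rest in part on which gene is named first.

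**Figure D1:**
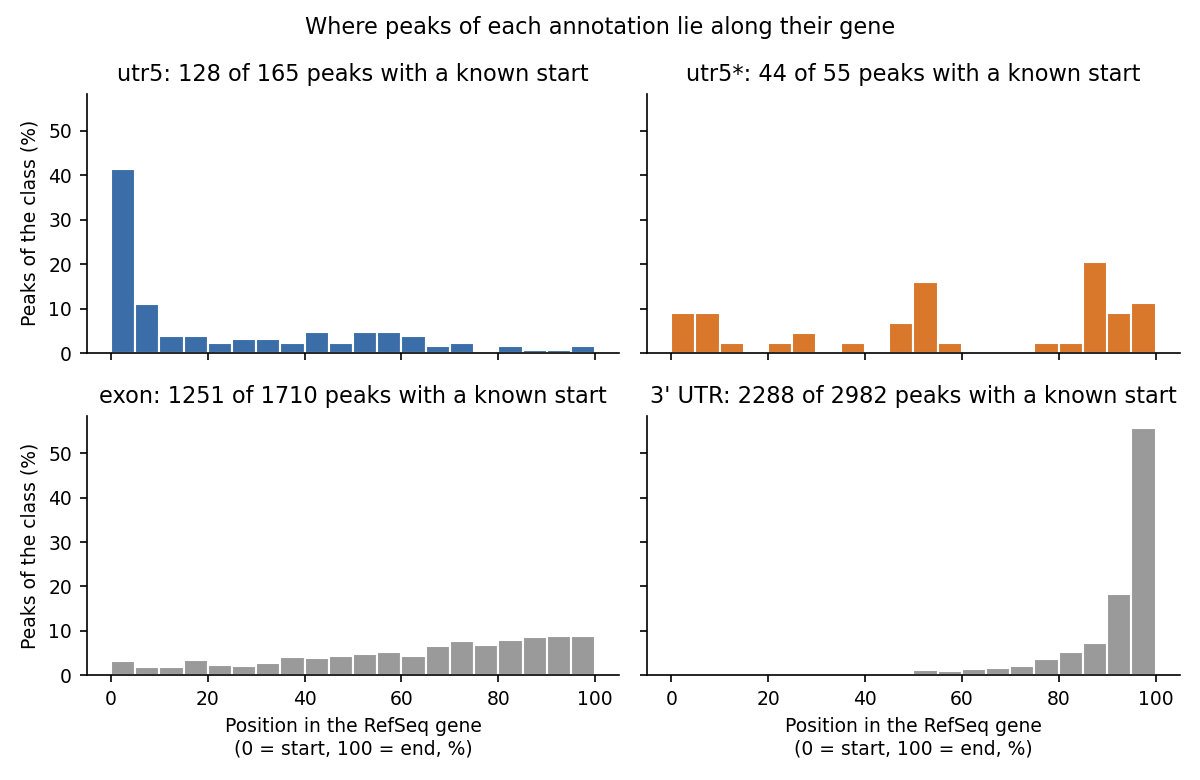
Share of the peaks of each annotation class (%, vertical axis) by position of the peak's midpoint along its RefSeq gene (%, horizontal axis, bins of 5), for peaks whose gene has a known start. The median was 8.18% for utr5, 52.6% for utr5*, 69.4% for exon and 95.9% for 3' UTR peaks.

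Seed matches of the authors' annotation were about as frequent in 5' UTR peaks as in 3' UTR peaks. A match to seed bases 2 to 8 was listed for 119 of the 220 peaks (54.1%), against 58.8% of 3' UTR peaks, and an 8-mer match for 28.2% against 28.7%. Target letters are shown for sites inside the RefSeq start windows that 28 of the 220 peaks reached. They were chosen because the peak is the highest of all (Lypd8), the second highest near a start (Slc3a1), or holds an 8-mer or a shared site. Capitals mark the bases complementary to seed bases 2 to 8 and, in an 8-mer, also the A opposite base 1 of the miRNA, which need not pair with it. Each stretch is on the transcribed strand of GRCm38.p6 (RefSeq). The Lypd8 stretch holds no listed match to all of seed bases 2 to 8, so it has no capitals. A shorter match, to miR-7-5p, was listed for its peak.
Lypd8, chr11:58379051-58379080: gccaagttccatcttcctccggatagtgtc
Slc3a1, let-7, chr17:85028368-85028395: agcaagacacctttCTACCTCtgtccct
Nlrp6, miR-24, chr7:140920920-140920947: cagcaagagtccagCTGAGCCAgaatga
Hist1h2bj, miR-24, chr13:22043220-22043247: ctgcttcactatgcCTGAGCCtgcgaag
Hist1h2bj, miR-484, chr13:22043220-22043247: ctgcttcactatgcctGAGCCTGcgaag
Gne, miR-22, chr4:44084156-44084178: cacttcgtGGCAGCTAaaccaga
Cdk5rap3, miR-29, chr11:96916426-96916446: caggatTGGTGCTAggctggg
Arl14, miR-17/20/93/106, chr3:69222408-69222435: acctgttcactgtgGCACTTTActctct

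The 7 letters that pair with seed bases 2 to 8 were searched on the transcribed strand alone in the 50 bases after each of 32851 RefSeq starts. CTACCTC was present in 0.228% of these windows, CTGAGCC in 1.04%, GAGCCTG in 0.938%, GGCAGCT in 0.974%, TGGTGCT in 0.484% and GCACTTT in 0.183%. The miR-24 and miR-484 matches of Hist1h2bj, a histone H2B gene, overlap each other. The same pair of families was listed for the 5' UTR peaks of Hist1h2bc and Hist1h2bk, near-identical H2B copies whose reads may not be separable. The miR-29 match of Cdk5rap3 lies upstream of the RefSeq start that the window is built on. A match is a description of these letters, not a shown site.

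The miRNAs matched in these peaks are given by the mature form with the highest level of each family, with the seed in capitals (RefSeq).
let-7b-5p: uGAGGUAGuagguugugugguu
miR-16-5p: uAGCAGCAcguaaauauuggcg
miR-194-5p: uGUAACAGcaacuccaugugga
miR-24-3p: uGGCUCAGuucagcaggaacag
miR-29a-3p: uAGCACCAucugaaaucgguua
miR-34a-5p: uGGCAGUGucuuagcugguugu
miR-484: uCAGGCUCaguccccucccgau
miR-22-3p: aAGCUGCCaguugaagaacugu
miR-93-5p: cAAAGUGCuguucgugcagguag

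Reads in merged peaks numbered 54401 to 148770 per library in WT and 148927 to 723937 in G12D, with replicate 2 of G12D the deepest. Each WT library had no read in 40 to 61 of the 220 peaks, and each G12D library in 3 to 7. Of 42 marker genes of colonocytes and goblet cells 38 had a merged peak, and of 32 markers of stromal, muscle and blood cells none had.

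Ago2 signal at 5' UTR peaks differed between the genotypes in both directions, with the highest peak far lower and the mucin peaks far higher in G12D. Values are the authors' normalized reads, and a fold change is on the scale of log2(normalized reads + 1), which understates the change of low peaks. Of the 220 peaks 178 had a mean of at least 5 and were tested with limma in 1 fit with all 4438 peaks that passed. At an adjusted p under 0.05, 95 were called, of which 66 were higher and 29 lower in G12D. Over all tested peaks 48.9% were called, 36.2% as higher and 12.7% as lower, so the members' 53.4%, 37.1% and 16.3% were near the background. The median log2 fold change was 0.80, against 1.05 over all tested peaks, and both medians stayed the same with peaks at 0 reads in a group set to the bound that 3 reads allow. In 93 of the 95 called peaks no G12D library overlapped a WT library. Called or not, the groups did not overlap in 78 members that were higher and 38 that were lower of 178. Over all 4438 tested peaks these were 1948 and 673. The share of higher ones was about the same as over all tested peaks, and that of lower ones was larger. This difference was not tested.

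The split between higher and lower calls depended on the scaling. It was 33 higher and 41 lower with quantile normalization, 40 and 45 with edgeR, 45 and 41 with DESeq2, and 46 and 37 with the same total over 3' UTR peaks. These settings moved the median of all tested peaks to 0.11, 0.47, 0.66 and 0.74 respectively. Leaving out G12D replicate 2 left 55 calls and leaving out G12D replicate 3 left 58. In both cases the calls over all tested peaks dropped as well. According to the authors' deposited table, an adjusted p under 0.05 was given for 109 of the 220 peaks, 78 higher and 31 lower, and 87 of them were also among the 95 with the same direction. The same count over all peaks of that table is not given here.

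The direction of a call followed the genotype list in which the authors had called the peak, as it did over all peaks. Of 32 peaks called in both lists 5 were higher and 6 lower, with a median of -0.06. Of the 33 peaks found in the WT list alone 22 were lower and none higher, and of the 113 tested peaks of the G12D list alone 61 were higher and 1 lower. These lists come from the same libraries, so these directions are a description. Over all tested peaks of both lists 115 were higher and 212 lower of 828, with a median of -0.45. Over all those of the WT list alone 3 were higher and 330 lower of 444, and over all those of the G12D list alone 1489 were higher and 21 lower of 3166.

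**Figure D2:**
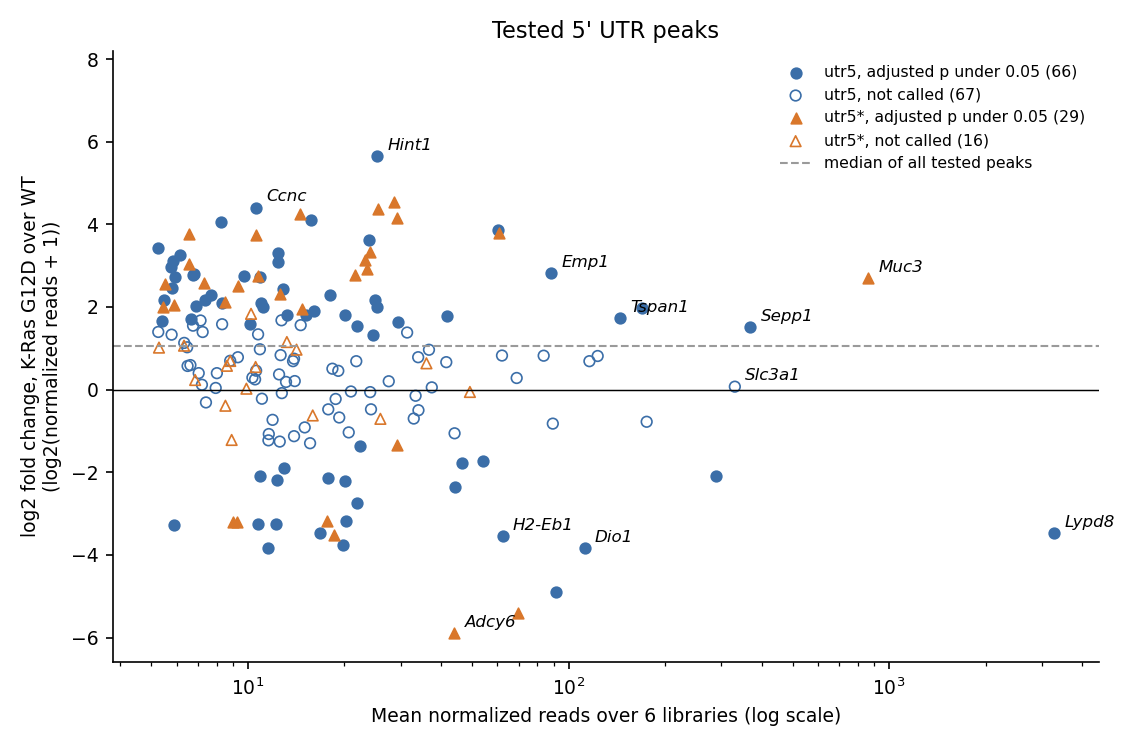
Change of each of the 178 tested 5' UTR peaks (log2 fold change, G12D over WT, vertical axis) against its mean normalized reads over 6 libraries (horizontal axis, log scale). Circles are utr5 and triangles utr5* peaks, filled where the adjusted p was under 0.05. The dashed line is the median of all tested peaks, 1.05. The Lypd8 peak stands alone at the right, at -3.48.

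Counts also differed by position. The 69 tested peaks within 1000 bases after a start had 19 higher and 14 lower calls and a median of 0.20. The 70 tested peaks elsewhere had 35 higher and 9 lower calls and a median of 1.56. The utr5* peaks were 22 higher and 7 lower of 45, with a median of 1.83, and the utr5 peaks 44 higher and 22 lower of 133, with a median of 0.69. Over all annotated peaks within 1000 bases after a start, 48 of 166 were higher and 30 lower, with a median of 0.49. The utr5* label held all 9 Muc3 peaks, each called higher, and of 5 tested Muc2 peaks 4 were higher. The peaks of both genes lie outside the start window. Part of the differences by position and label therefore rests on neighbouring peaks of these genes. Without the Muc2 and Muc3 peaks 53 of 164 members were higher and 29 lower. Peaks with a match to all of seed bases 2 to 8 had 27 higher and 9 lower calls of 96, against 942 and 269 of 2672 over all annotated peaks with one. Peaks with no such match, some of which list a shorter seed match, had 39 and 20 of 82, against 643 and 250 of 1681. The difference between these subsets was not tested.

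One peak set the total of the whole class. All 220 peaks together took 5.80%, 6.91% and 5.03% of the reads in merged peaks in the WT libraries, and 4.15%, 5.15% and 4.93% in the G12D libraries. The groups overlapped (mean 5.91% ± 0.942 against 4.74% ± 0.527, SD, n = 3 each, exact two-sided permutation p = 0.2, where 0.1 is the smallest that 3 against 3 libraries allow). The peak with the highest mean, at the start of Lypd8, held 51.6%, 64.3% and 47.7% of the 5' UTR reads in WT and 9.86%, 5.04% and 6.60% in G12D.

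Without that peak the share was 2.89%, 2.58% and 2.70% in WT and 3.75%, 4.91% and 4.62% in G12D. These groups did not overlap (2.73% ± 0.157 against 4.43% ± 0.599, SD, n = 3 each, exact permutation p = 0.1). Counting error alone gave Wilson 95% intervals of 2.45% to 2.72% in the shallowest library and 4.86% to 4.96% in the deepest.

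Much of the higher share lay in the mucin peaks. Without the Muc2 and Muc3 peaks and the Lypd8 peak the share was 2.53% in WT and 3.04% in G12D, a difference of 0.517 points in place of 1.70 (exact permutation p = 0.1). The utr5* peaks, which hold all but 1 of these mucin peaks, took 0.525%, 0.430% and 0.473% of reads in WT and 1.18%, 1.94% and 1.49% in G12D, and the groups did not overlap (0.476% ± 0.0475 against 1.54% ± 0.385, SD, n = 3 each, exact permutation p = 0.1). The Muc2 and Muc3 peaks made up 0.196% of reads in WT and 1.42% in G12D. The utr5 peaks without the Lypd8 peak took 2.23% ± 0.111 and 2.89% ± 0.284 (SD, n = 3 each, exact permutation p = 0.1), with no overlap. Peaks within 1000 bases after a RefSeq start, again without the Lypd8 peak, took 1.34%, 1.14% and 1.38% in WT and 1.06%, 1.27% and 1.49% in G12D. These groups overlapped (1.29% ± 0.128 against 1.28% ± 0.213, SD, n = 3 each, exact permutation p = 1.0). As a sum of normalized reads, the utr5 peaks without the Lypd8 peak gave 4083 ± 841 in WT and 4700 ± 733 in G12D (SD, n = 3 each, exact permutation p = 0.4), with overlapping groups.

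**Figure D3:**
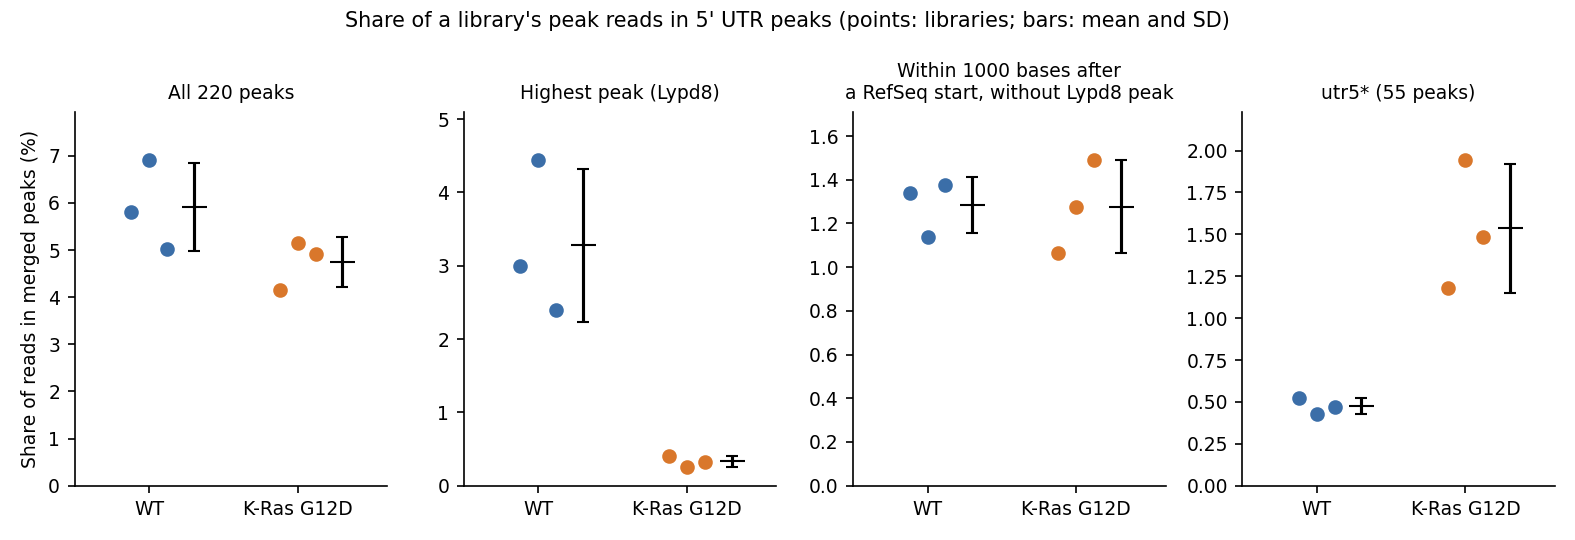
Share of each library's reads in merged peaks (%, vertical axes, each from 0) in 4 sets of 5' UTR peaks, with 1 point per library and the mean and SD beside them. The Lypd8 peak is at 2.40% to 4.44% in WT and 0.260% to 0.409% in G12D, the utr5* peaks are higher in every G12D library, and the peaks near starts overlap between the genotypes.

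The highest peak lay 44 bases, at its midpoint, after the start of Lypd8, whose product is a secreted colonocyte protein that binds flagellated bacteria. It held 6413, 6996 and 4601 normalized reads in the WT libraries and 664, 388 and 577 in the G12D libraries, and fell by 3.48 ± 0.44 on the log2 scale (SE, adjusted p = 0.000269). The second Lypd8 peak, further into the gene, held 626, 432 and 340.2 in WT and 152, 64.0 and 118 in G12D and fell by 2.10 (adjusted p = 0.00158). Another lay between them with 89.4 ± 19.7 in WT and 143 ± 18.6 in G12D (SD, n = 3 each), a log2 fold change of 0.69 that did not pass (adjusted p = 0.101). So 2 of the 3 Lypd8 peaks fell and the one between them was not called.

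The highest mucin peak, in Muc3, held 321, 194 and 177 normalized reads in WT and 1031, 1814 and 1623 in G12D and rose by 2.70 ± 0.39 (SE, adjusted p = 0.000380). Every G12D library lay above every WT library. An 8-mer match to let-7 and matches to miR-140-5p, miR-34/449 and miR-30-3p were listed for it. The 9 Muc3 peaks all rose, by 2.70 to 4.54 with a median of 3.80, and summed to 258 ± 90.1 in WT and 1893 ± 455 in G12D (SD, n = 3 each). Of the 7 Muc2 peaks 5 were tested and 4 rose. The highest of them held 82.8, 69.6 and 52.8 in WT and 244, 242 and 329 in G12D and rose by 1.98 (adjusted p = 0.000753).

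Among the other high peaks, Sepp1, the gene of the selenium carrier selenoprotein P, held 342, 139 and 134 normalized reads in WT and 452, 545 and 603 in G12D and rose by 1.51 ± 0.41 (SE, adjusted p = 0.01003). The groups did not overlap, but the call was lost with edgeR and without G12D replicate 3. Tspan1, a tetraspanin gene, held 67.9, 63.8 and 63.2 in WT and 169, 214 and 288 in G12D and rose by 1.73 (adjusted p = 0.00158). Its WT libraries were nearly alike and all G12D libraries were higher.

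The Slc3a1 peak, on the gene of the heavy subunit of a cystine and basic amino acid transporter, is the one printed above with a let-7 match. It held 354.5, 241 and 336 in WT and 228, 261 and 561 in G12D, so the groups overlapped (log2 fold change 0.07 ± 0.40, SE, adjusted p = 0.887). Ctsl, the gene of the lysosomal protease cathepsin L, had 318, 255 and 107 in WT and 107, 94.1 and 170.2 in G12D, which also overlapped (log2 fold change -0.78, adjusted p = 0.155).

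The 8 largest rises lay in Hint1, 4 Muc3 peaks, Ccnc, Zdhhc17 and Rps21. Hint1, which encodes a nucleotide hydrolase of the histidine triad family, had 0 reads in all 3 WT libraries and 63.3, 34.9 and 53.9 normalized reads in G12D. With WT set to 3 reads over the group, its level was at least 24.1-fold higher in G12D (adjusted p = 0.000127). Ccnc, the gene of cyclin C of the Mediator complex, also had 0 reads in WT and 16.4, 31.4 and 15.8 in G12D, at least 10.1-fold higher (adjusted p = 0.000293). Rps21, a gene of the small ribosomal subunit, had 0 reads in WT and 9.82, 20.8 and 18.7 in G12D, at least 7.82-fold higher (adjusted p = 0.000359). Zdhhc17, a palmitoyltransferase gene, was at 4.25, 0 and 0 in WT and at 26.2, 42.3 and 21.5 in G12D (adjusted p = 0.00141). All 8 were in the G12D peak list alone, and their WT values rest on 0 to 4 reads in the group, so fitted fold changes depend on the added 1.

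The 8 largest falls lay in Adcy6, Dio1, Hoxb6, Fam43a, H2-Eb1 and 3 peaks with a double label. The Dio1 and H2-Eb1 peaks were in both peak lists, and the others were in the WT list alone. Adcy6, the gene of an adenylyl cyclase, held 53.1, 34.8 and 175 normalized reads in WT and 0, 0.619 and 0 in G12D (log2 fold change -5.89 ± 0.70, SE, adjusted p = 0.000207). Dio1, the gene of type 1 iodothyronine deiodinase, held 308, 58.0 and 267 in WT and 4.36, 11.6 and 24.4 in G12D (log2 fold change -3.83, adjusted p = 0.00103). H2-Eb1, an MHC class II beta chain gene, held 134, 95.6 and 115 in WT and 16.4, 8.05 and 5.03 in G12D (log2 fold change -3.55, adjusted p = 0.000258). In each, all WT libraries lay above all G12D libraries.

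A peak labelled with both n-R5s40, a 5S rRNA locus, and Gtpbp1, a GTPase gene, fell from 136 ± 98.5 to 2.41 ± 2.22 (SD, n = 3 each, adjusted p = 0.000274), and its reads cannot be assigned to 1 of the labels. The peak of Ctnnd1, the gene of p120 catenin, shared its label with RP23-387F9.7 and held 144, 34.8 and 357 in WT against 5.45, 5.36 and 0.718 in G12D (adjusted p = 0.000595). Peaks of the homeobox gene Hoxb6, of Fam43a and of the histone demethylase gene Kdm6b, labelled together with Tmem88, had WT means of 22.4, 37.5 and 34.5 and G12D means of 0.718, 1.96 and 2.67.

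**Figure D4:**
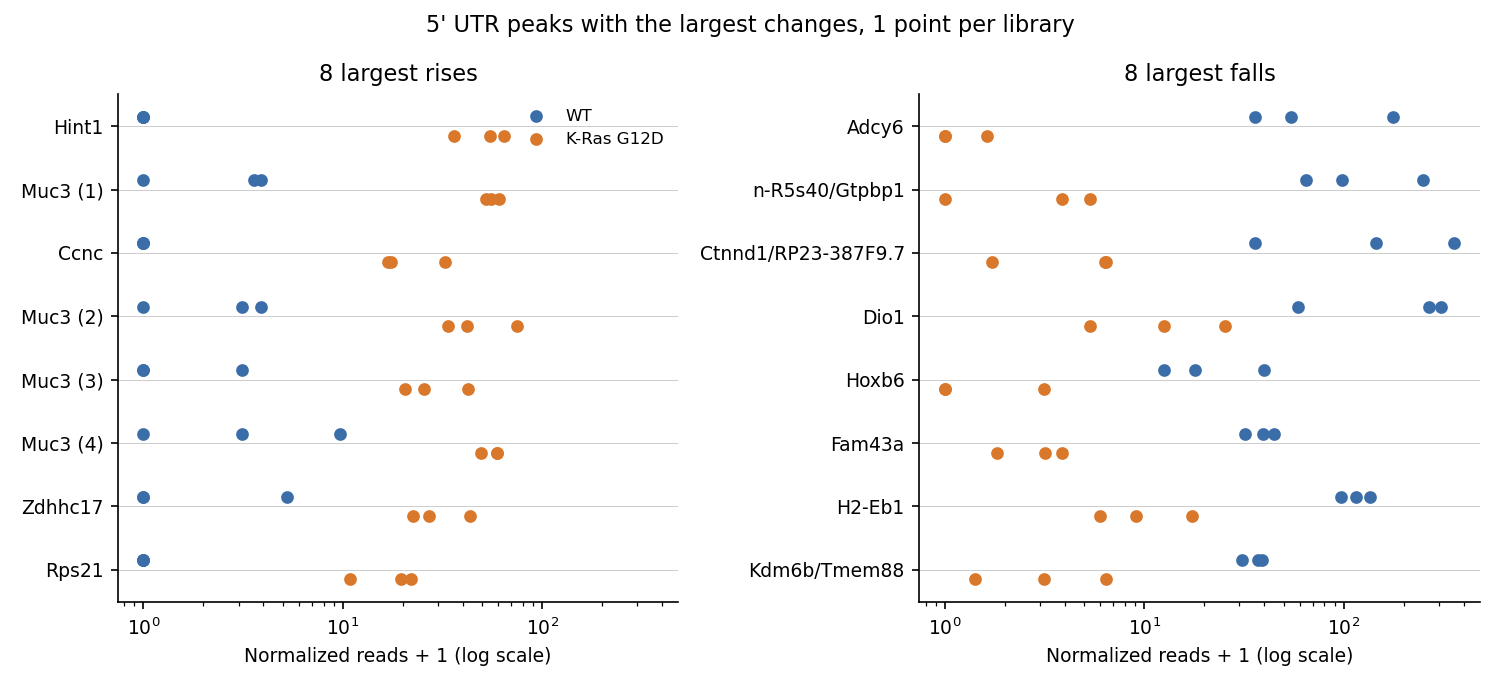
Normalized reads plus 1 (horizontal axis, log scale) of the 8 largest rises and the 8 largest falls among 5' UTR peaks, with 1 point per library, WT in blue and G12D in orange. The 4 Muc3 peaks are numbered by size of change. In no row do the genotypes overlap.

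Of 15 genes with 2 or more tested 5' UTR peaks, 2 had peaks called in opposite directions, Slc26a2 and Slc38a2, which were singled out after their values were seen. Slc26a2 encodes a sulfate transporter and had 4 peaks within 454 bases. One fell from 11.4 ± 2.85 to 0.344 ± 0.596 normalized reads (adjusted p = 0.00122) and another rose from 2.00 ± 1.94 to 9.77 ± 3.97 (adjusted p = 0.0334, SD, n = 3 each). Slc38a2 encodes a neutral amino acid transporter. Its peak nearer the start rose from 1.93 ± 3.35 to 9.62 ± 2.96 (adjusted p = 0.0231) and the one 964 bases after the start fell from 19.9 ± 2.99 to 1.57 ± 1.64 (adjusted p = 0.00284, SD, n = 3 each). The rises of Slc26a2 and Slc38a2 rest on 4 and 2 reads in the WT group. The authors' deposited adjusted p for the Slc26a2 rise was not under 0.05. In 5 further genes 2 or more 5' UTR peaks were called in 1 direction: Muc3, Muc2, Lypd8, Mgat4c and Plekhg6. The same counts of genes were not made over all peaks, so they have no background here.

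Gene lists were read by their counts beside the same list over all tested peaks. Colonocyte and goblet cell markers held 28 members, of which 16 of 26 tested were higher and 4 lower, with a median of 2.34, against 96 higher and 30 lower of 214 over all peaks of these genes, with a median of 1.28. Of the 28 members 16 were the Muc2 and Muc3 peaks described above. The summed signal of all peaks of these markers was 16700 to 19510 in WT and 14220 to 17540 in G12D, and its part in the result was not tested.

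Solute carriers, which move nutrients and ions across membranes, had 4 higher and 3 lower of 14 tested members, with a median of 0.49, against 41 and 16 of 140 over all their peaks. Slc40a1, the gene of the iron exporter ferroportin, held 61.1 ± 8.08 in WT and 76.8 ± 26.3 in G12D (log2 fold change 0.28, adjusted p = 0.524). Slc20a1, a phosphate transporter gene, held 25.2 ± 11.8 and 22.9 ± 8.53 (log2 fold change -0.06, adjusted p = 0.925, SD, n = 3 each). In both the groups overlapped.

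Ribosomal proteins and translation factors, many of whose mRNAs begin with a pyrimidine tract that controls their translation, had 5 tested members, 3 higher and none lower, against 17 and 5 of 46 over all peaks of the list. The pattern behind this list also took the kinase gene Rps6ka1, which rose from 14.02 ± 5.74 to 44.7 ± 10.9 (adjusted p = 0.0101, SD, n = 3 each). Rplp0, labelled together with Gcn1l1, rose from 6.78 ± 7.001 to 22.7 ± 2.82 (adjusted p = 0.0259). The peak of Eif5a, a translation factor gene, was at 32.4 ± 7.91 in WT and 19.5 ± 4.90 in G12D without a call (adjusted p = 0.175).

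Of the respiratory chain list 1 of 3 members rose, against 9 higher and 6 lower of 35 over all its peaks. The riser was the one labelled with Ndufs8 and Tcirg1, from 3.35 ± 3.00 to 13.6 ± 3.10 (adjusted p = 0.0401, SD, n = 3 each). Atp5j, an ATP synthase subunit gene, held 18.1 ± 3.19 in WT and 7.07 ± 1.90 in G12D (adjusted p = 0.0626), and Cox8a, a cytochrome oxidase subunit gene, 15.9 ± 1.32 and 7.33 ± 2.98 (adjusted p = 0.112). In both, the groups did not overlap although the test did not call them.

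Of the protein turnover list 2 of 3 tested members rose, against 14 higher and 7 lower of 46 over all its peaks. Ubb, a ubiquitin gene, went from 1.42 ± 2.45 to 12.0 ± 6.19 (adjusted p = 0.0121), and Cdc34, the gene of a ubiquitin-conjugating enzyme, from 2.53 ± 0.390 to 10.7 ± 2.42 (adjusted p = 0.0325, SD, n = 3 each). Ubl7 was at 10.7 ± 9.10 and 17.1 ± 9.88 without a call (adjusted p = 0.353). Of the RNA binding list only the peak labelled with Gm22589 and the splicing helicase gene Ddx39b was tested, and it rose from 3.39 ± 1.58 to 18.9 ± 12.2 (adjusted p = 0.0305), while 13 were higher and 9 lower of 40 over all peaks of that list.

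Among cytoskeleton and junction genes 1 of 4 tested members rose and 1 fell, against 46 higher and 11 lower of 107 over all their peaks. The fall was in Ctnnd1, given above, and the rise in Cldn7, a tight junction claudin gene, from 6.93 ± 5.15 to 25.2 ± 5.96 (adjusted p = 0.0185, SD, n = 3 each). Krt8, a keratin gene of simple epithelium, held 42.5, 31.9 and 34.8 in WT and 50.2, 36.7 and 28.7 in G12D, which overlapped (adjusted p = 0.908). In the membrane traffic list, with 20 higher and 2 lower of 58 over all its peaks, both tested members were called. Rhob, a small GTPase gene, fell from 31.7 ± 2.53 to 13.2 ± 8.50 (adjusted p = 0.0385) and Vps16, a vacuolar sorting gene, rose from 2.55 ± 3.37 to 16.8 ± 6.44 (adjusted p = 0.0131).

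Of 7 tested members of the transcription and chromatin list 1 was higher and 3 lower, against 27 higher and 12 lower of 96 over all its peaks. The difference between these splits was not tested. Its pattern took the MHC genes H2-Eb1, given above, and H2-K1, an MHC class I gene at 36.2 ± 20.1 in WT and 30.5 ± 8.19 in G12D (adjusted p = 0.797). The falls were in H2-Eb1, Kdm6b and Kdm5a. Kdm5a, a histone demethylase gene, went from 39.5 ± 25.2 to 4.40 ± 0.120 (adjusted p = 0.00222, SD, n = 3 each). The member that rose was Hist1h2bj, printed above with its miR-24 match, from 2.36 ± 3.04 to 13.0 ± 9.28 (adjusted p = 0.0331). Mapk6 of the RAS and MAPK list and Chga, the gene of the enteroendocrine granule protein chromogranin A, had means under 5 and were not tested. The calls of Ndufs8, Cdc34 and Rplp0 were lost under 11, 8 and 8 of 18 alternatives, and that of Rhob under 7 of 19. The calls of Cldn7 and Ddx39b were each lost under 6 of 18, those of Ubb and Vps16 under 4 of 18 and that of Rps6ka1 under 3 of 19, in each case without G12D replicate 2 or 3 among them.

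To set a 5' UTR peak beside the other peaks of its gene, it was divided by their sum in the same library, further 5' UTR peaks included. To both, 1 was added first. The library's scaling factor is thus removed only where both values are well above 1. Of 114 members that could be tested this way 37 were called, 14 higher and 23 lower, with a median log2 change of -0.03 against 0.34 over all 2992 tested ratios. Over all of these 31.1% were called, 17.7% higher and 13.4% lower, against 32.5% of the members. The 42 members within 1000 bases after a start had 2 higher and 13 lower calls and a median of -0.82. Among 3' UTR peaks 299 were higher and 169 lower of 1770, with a median of 0.46. Exon peaks also had more lower than higher calls, 178 against 145 of 913, with a median of -0.06. Without G12D replicate 1, 2 or 3 the count of 37 dropped to 20, 19 and 24, and the calls over all tested ratios dropped as well. The split turned among high peaks, where the ratio with a mean of at least 20 had 11 higher and 7 lower calls of 35. At this filter about the same share of all tested ratios was called. Their split into higher and lower was not counted, so the turn has no background here.

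The peak and its ratio were both higher in 10 members and both lower in 13, while 1 peak rose and its ratio fell. In 34 members the peak was higher and the ratio not called, the 9 Muc3 peaks among them. For the highest Muc3 peak the other peaks of the gene went from 126 to 717 normalized reads and the ratio changed by 0.19 (adjusted p = 0.819). These other peaks include the smaller Muc3 5' UTR peaks. For the smaller ones the reference holds the highest peak, so their ratios largely compare neighbouring peaks. They do not show how the rest of the transcript changed. The opposite case was Cldn7, whose peak rose, with a call lost under 6 of 18 alternatives, while its ratio fell by 3.03 (adjusted p = 0.00537), with its other peak at 0.708 in WT and 44.7 in G12D.

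The 6 largest rises of the ratio were in Nlrp6, Hint1, Tns4, Pigr, B3gnt7 and Tacc2. All 6 peaks were in the G12D peak list alone, which comes from these same libraries, so their direction is a description. Of 73 tested ratios of members of that list alone 12 were higher and 6 lower. Nlrp6, an inflammasome receptor gene whose miR-24 site is printed above, held 6.37, 0 and 3.87 normalized reads in WT and 9.82, 15.5 and 14.4 in G12D at its start, while its other peak went from 33.2 to 1.44. Its ratio rose by 5.93 ± 0.81 (SE, adjusted p = 0.00156), and the call of the peak alone (adjusted p = 0.0448) was lost under 12 of 18 alternatives. Tns4, a focal adhesion tensin gene, rose at the 5' UTR peak from 2.55 ± 3.37 to 22.2 ± 10.97 with its other peak at 89.7 in WT and 14.8 in G12D (ratio change 5.40, adjusted p = 0.00129).

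Pigr encodes the receptor that carries IgA across the epithelium. Its 5' UTR peak had 0.430 ± 0.744 in WT and 11.8 ± 2.65 in G12D (SD, n = 3 each), and its 11 other peaks summed to 1356 and 648, so the ratio rose by 4.33 (adjusted p = 0.00129). B3gnt7, a glycosyltransferase gene, showed the same arrangement, with 2.83 ± 4.90 and 22.0 ± 13.3 at the peak and 823 and 441 at the others (ratio change 4.23, adjusted p = 0.0114). The 2 peaks of Tacc2, a centrosomal coiled-coil gene, are each other's reference, and the call for the riser (ratio change 3.05, adjusted p = 0.0221) was lost without any of 5 of the 6 libraries.

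The 6 largest falls of the ratio were in Lima1, Adcy6, Ppp1cb, Slc38a2, Nedd4 and Slc26a3. All 6 peaks were in the WT peak list alone, so the direction of these falls is likewise a description. Of 20 tested ratios of members of that list alone 12 were lower and 0 higher. These splits by list were not counted over all ratios. Lima1, an actin-binding protein gene, held 78.6, 52.2 and 94.1 in WT and 12.0, 11.8 and 17.2 in G12D at a peak with an 8-mer match to miR-17/20/93/106, and its ratio fell by 5.88 ± 0.61 (SE, adjusted p = 0.000931). Its other peak was at 0 in every WT library, so the size of this fall depends on the added 1. Nedd4, a ubiquitin ligase gene, fell at the 5' UTR peak from 33.4 ± 1.47 to 6.70 ± 2.47 while its 3 other peaks went from 5.77 to 26.6 (ratio change -4.22, adjusted p = 0.00129). Ppp1cb, a protein phosphatase 1 subunit gene, fell from 18.5 ± 10.3 to 3.27 ± 1.28 (ratio change -4.77, adjusted p = 0.00968). Slc26a3, the gene of the colonic chloride and bicarbonate exchanger, fell from 17.8 ± 15.1 to 0.721 ± 0.722 with its other peaks at 53.5 and 67.5 (ratio change -3.67, adjusted p = 0.00505). For Lypd8 the highest peak also fell relative to the 10 others, by 2.92 (adjusted p = 0.00809). The ratio of the Lypd8 peak that was not called by itself rose by 2.75 (adjusted p = 0.00477). Its reference went from 8366 in WT to 2016 in G12D and includes the highest peak, which went from 6004 to 543. This rise therefore largely restates the fall of the highest peak.

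**Figure D5:**
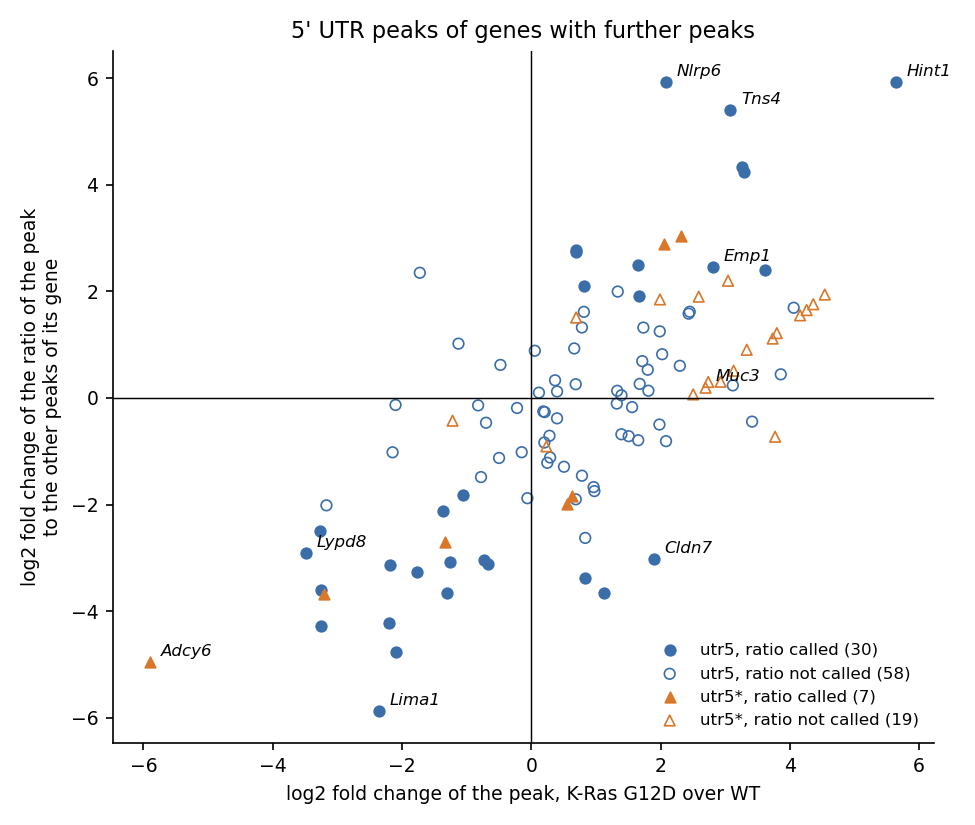
Change of the peak divided by the other peaks of its gene (log2, G12D over WT, vertical axis) against the change of the peak itself (log2, horizontal axis) for 114 5' UTR peaks. Filled marks are ratios with an adjusted p under 0.05. The 9 Muc3 peaks lie to the right, at ratio changes of 0.19 to 1.94, unfilled, and Cldn7 is the one filled mark with a called rise and a ratio that fell.

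Matches to all of seed bases 2 to 8 in 5' UTR peaks named 42 seed families, 18 of them in 3 or more peaks. The let-7 family led with 19 peaks in 19 genes (8.64% of members, 5.90% of 3' UTR peaks), followed by miR-15/16 with 16 (7.27% against 4.39%), miR-194 and miR-24 with 13 each (5.91% against 3.76% and 3.45%) and miR-29 with 9 (4.09% against 3.49%). miR-34/449 matches stood in 3.64% of members and 0.872% of 3' UTR peaks. The order was the other way round for the miR-200-3p family, at 1.82% and 5.16%, and for miR-17/20/93/106, at 1.36% and 3.49%. These shares were not tested, and peaks of 1 gene share sequence: the 6 miR-140-5p peaks lay in 2 genes.

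Of the 14 tested let-7 peaks 4 were higher and 1 lower with a median of 0.97, against 134 and 37 of 378 over all let-7 peaks with a median of 0.91. The miR-24 peaks had 3 higher and none lower of 11 with a median of 0.20, against 44 and 16 of 149 with a median of 0.82. The miR-34/449 peaks had 3 higher and none lower of 6, against 14 and 4 of 36 over all such peaks. Among them was Emp1, which encodes an epithelial membrane protein and also carries an 8-mer match to miR-29. It held 31.8, 17.4 and 16.8 in WT and 167, 141 and 156 in G12D and rose by 2.82 ± 0.37 (SE, adjusted p = 0.000274), and relative to the 15 other peaks of its gene by 2.45 (adjusted p = 0.0136). Trp53inp1, a p53 target gene with a miR-17/20/93/106 8-mer, held 138, 43.5 and 102 in WT and 134, 188 and 134 in G12D, which overlapped (log2 fold change 0.81, adjusted p = 0.131).

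The printed sites not yet given values are those of Gne, Cdk5rap3 and Arl14. Gne, the gene of a sialic acid synthesis enzyme, held 8.86 ± 3.79 in WT and 16.4 ± 5.75 in G12D (SD, n = 3 each, adjusted p = 0.229). Cdk5rap3 held 4.53 ± 1.79 and 8.44 ± 5.46 (adjusted p = 0.519). Arl14, a small GTPase gene, had 0, 0 and 1.29 in WT and 3.27, 8.05 and 7.90 in G12D and was below the mean needed for the test.

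The Ago2-bound level of the matching miRNAs was tested in the miRNA libraries. Of 254 miRNAs tested 15.7% were called, and of the 16 leading miRNAs of these families 1 was. miR-194-5p held 19630, 24800 and 15670 normalized reads in WT and 22880, 33180 and 30340 in G12D and rose by 0.53 ± 0.18 (SE, adjusted p = 0.0339), although the groups overlapped and the call was lost under 9 of 16 alternatives, among them edgeR, DESeq2 and leaving out G12D replicate 2, G12D replicate 3 or WT replicate 3. let-7b-5p was at 4320 ± 931 and 4318 ± 1034 (SD, n = 3 each, log2 fold change -0.00, adjusted p = 0.996). miR-22-3p was at 4393 ± 908 and 6409 ± 482 and miR-141-3p at 6048 ± 1240 and 8390 ± 762, in both with no overlap between the groups but adjusted p of 0.0585 and 0.0829. miR-34a-5p was at 4596 ± 766 and 4065 ± 998 (adjusted p = 0.609). The other 11 had log2 fold changes from -0.22 to 0.58.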

How the data were processed

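HEAP mRNA and miRNA libraries were analysed, 3 per genotype. Per the submitters' processing notes reads were aligned with STAR 2.5.2b to mm10 (GRCm38) and DESeq2 was used, and neither the peak caller nor the counting rules is given in the sources used here. The authors deposited normalized read signal per merged peak and per miRNA, a score per peak, and a table of log2 fold changes with adjusted p-values. Deposited peak annotation gave the 5' UTR labels and seed matches. Dividing the deposited signal by the worth of 1 read gave whole numbers, to a tolerance of 0.01, for 100.0% of values, and hence each library's depth. The number of value columns without a sample was 0.

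The main test was limma 3.58.1 in R 4.3.3 with a variance trend on log2(normalized reads + 1), for peaks with a mean of at least 5 and miRNAs with a mean of at least 10, and p-values were adjusted after Benjamini-Hochberg across the whole table, with calls made under 0.05. The ratio test used the log2 difference between a peak and the sum of the other peaks of its gene, each with 1 added. Shares of reads were compared with exact two-sided permutation tests, with Wilson 95% intervals that cover counting error only. edgeR 4.0.16 and DESeq2 1.42.0 on the recovered reads, other scalings, filters, added constants and left-out libraries were the alternatives. The text names the highest peaks, the largest called rises and falls of a peak and of its ratio, and the members of the gene lists. Others are named where a printed site or an opposite direction called for it, after their values were seen. Members and lists were chosen with earlier results of these data known. Positions and sequences came from RefSeq tables of GRCm38.p6, and 216 of 220 peaks had a gene name found there. On simulated data the peak test called 118 of 198 changed peaks, all in the right direction, and 1 unchanged peak among 4611 tested. The ratio test called 27 of 121 changed peaks and 10 unchanged ones among 3129 tested. An unchanged peak beside a changed one has a changed ratio, so these 10 need not be false calls. The simulation changed few peaks, up or down at random, with the same dispersion for all and known scaling factors. In the real data 48.9% of tested peaks were called and the median was 1.05. The simulated counts therefore do not give the rate of false calls here.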

Additional observations from a re-analysis of the deposited data

How the results depend on the processing

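Of the 220 peaks 42 were too low to test, and in WT 1 read was worth 1.29 to 2.90 normalized reads, which limits low peaks. The 95 called peaks (66 higher, 29 lower) became 39 with a mean of at least 20, 11 among peaks of both lists, 33 within 1000 bases after a start, and 55 to 98 with 1 library left out. The count was 73 after thinning to the shallowest library, 74 with quantile normalization, 85 with edgeR and 86 with DESeq2. The 37 called ratios became 18 with a mean of at least 20, 6 among peaks of both lists, and 19 to 50 with 1 library left out. The 1 called miRNA became 0 with DESeq2, edgeR, no filter, no variance trend, quantile normalization or the same total per library, and 0 to 3 with 1 library left out. Thinning, the limit to peaks near a start and leaving out the Muc2 and Muc3 peaks were chosen after seeing the data. Calls over all tested peaks also fell with the higher filter, among peaks of both lists and after thinning. They fell too with quantile normalization, edgeR or DESeq2, and without any 1 G12D library. Calls over all tested ratios fell with the higher filter, among peaks of both lists and without any 1 G12D library. Such drops were therefore not limited to the 5' UTR peaks. Some of these settings leave fewer peaks or libraries, and the cause of the changed counts was not tested.

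No pairing by replicate number was seen. The same-number correlations were 0.041, -0.036 and -0.008, and not every library correlated best with its own number. With 3 libraries per group these correlations cannot settle whether same-number libraries were handled together. With the replicate number as a block 95 peaks (65 higher, 30 lower), 34 ratios and 1 miRNA were called.

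Of the named results, those that reversed in direction had not been called, and all values here are log2 fold changes. With DESeq2 Slc3a1 peak11134 became -0.20, Slc40a1 peak2112 -0.038, Krt8 peak9829 -0.24 and mmu-miR-16-5p -0.0087. With edgeR these became -0.40, -0.24, -0.45 and -0.15, mmu-miR-196b-5p -0.071 and mmu-miR-93-5p -0.042. With the same total over 3' UTR peaks Slc3a1 became -0.29, Slc40a1 -0.074 and Krt8 -0.30. With quantile normalization Ubl7 peak23914 became -0.054, mmu-miR-16-5p -0.067, mmu-miR-24-3p -0.10, mmu-miR-196b-5p -0.14, mmu-miR-200c-3p -0.29 and mmu-miR-93-5p -0.079. With the same total per library H2-K1 peak11433 became 0.043, Slc20a1 peak14294 0.13, mmu-miR-16-5p -0.29, mmu-miR-24-3p -0.12, mmu-miR-194-2-3p -0.10, mmu-miR-196b-5p -0.24, mmu-miR-200c-3p -0.11 and mmu-miR-93-5p -0.20. After thinning Atp5j peak10517 became 0.25. With 1 library left out H2-K1 ranged from -0.39 to 0.27, Krt8 from -0.15 to 0.24, Slc20a1 from -0.52 to 0.18, Slc3a1 from -0.33 to 0.32, mmu-let-7b-5p from -0.19 to 0.15, mmu-miR-16-5p from -0.10 to 0.26, mmu-miR-30e-3p from -0.52 to 0.054, mmu-miR-34a-5p from -0.33 to 0.0245 and mmu-miR-484 from -0.19 to 0.042.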
